A study of Rattus with 4 samples.

Results

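The genes described here encode proteins that remodel chromatin or write, erase and read marks on histones and DNA. They were chosen by name, as the protein-coding genes of the ARID, SMARC, CHD, BAZ, KDM, KMT2, SETD, DNMT, TET, HDAC, BRD, EZH, PHF, NCOR, ASXL and INO80 families together with Bptf, Ep300 and Crebbp. The rule found 115 of the 13731 genes listed. Asxl3 also matched the names but is listed as another RNA type, so it was left out. RNA recovered with an antibody to NONO was compared with input RNA in a cultured rat heart line, by RNA immunoprecipitation sequencing (RIP-seq), in which RNA that comes down with a protein is sequenced beside the RNA of the starting lysate. NONO is a nuclear protein that binds RNA and DNA and is a core component of paraspeckles. The NONO IP group holds 2 libraries made with an anti-NONO antibody, whose cells the labels describe as carrying NONO siRNA. The input group holds 2 libraries with no antibody, from cells labelled as carrying an empty vector. Antibody and siRNA therefore cannot be told apart by the labels, and no control-antibody library was analysed here. The titles name H9C2, a rat heart myoblast line, whereas the growth protocol names a cardiac fibroblast line. Nothing says whether replicates were separate cultures, so p-values measure only the spread between these libraries.

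Chromatin remodellers use ATP to slide, evict or exchange nucleosomes, and they work as large complexes in which one ATPase is joined by many accessory subunits. Histone methyltransferases and demethylases, acetyltransferases and deacetylases set and remove marks that bromodomain and PHD finger proteins read, and DNMT and TET enzymes do the same for cytosine methylation. In cardiac fibroblasts such enzymes and readers are known for setting which matrix and contractile genes can be switched on.

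Gene reads summed to 279410 and 264059 in the NONO IP libraries and to 249548 and 238776 in the inputs. By these totals 3 reads stand for 10.7 to 12.6 CPM (counts scaled to a fixed library size). The CPM levels below are TMM-scaled, which sets the typical gene near no change. On that scale 3 reads stand for 10.2 and 10.7 CPM in the NONO IP, against 15.5 and 15.9 in the inputs. At this depth many regulators carry only a few reads. Nono itself had 3 and 3 reads in the NONO IP, against 21 and 9 in the inputs. Ribosomal RNA took 31.9% and 32.2% of NONO IP reads, against 42.3% and 41.1% of input reads. Of 9 fibroblast markers 8 were listed, and they held 39274 NONO IP reads against 37430 input reads, nearly all on collagen genes. The 7 cardiomyocyte markers held 151 against 101 reads, the 5 smooth muscle and pericyte markers 992 against 1606, the 5 skeletal myoblast markers 6 against 15, the 5 endothelial markers 2 against 1 and the 5 macrophage and leukocyte markers 2 against 5. Of the myoblast markers only Des was listed. Within the cardiomyocyte list Tnnt2 had 64 and 59 reads in the NONO IP, against 16 and 39 in the inputs, whereas Myh6 had 8 and 5 against 10 and 11 and Myh7 had 2 and 2 against 10 and 10. The part of these differences in the values below was not tested.

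All 115 chromatin genes were summed first, because a sum takes in members with too few reads for a test of their own. They held 3044 and 2863 reads in the NONO IP libraries, against 1344 and 1361 in the inputs. That is 1.09% and 1.08% of all gene reads in the NONO IP (95% Wilson intervals 1.05% to 1.13% and 1.05% to 1.12%), against 0.539% and 0.570% in the inputs (0.511% to 0.568% and 0.541% to 0.601%). The groups did not overlap, and the mean share was 1.96-fold higher in the NONO IP. With 2 libraries against 2 the exact two-sided permutation test cannot go below p = 0.333, which is the value found. The intervals cover counting error only, since the reads carry no molecular identifiers. As a share of protein-coding reads alone the ratio was 1.75. On the scale of the deposited RPKM, in which reads are divided by gene length and by a library-wide total, the summed values were 389 and 397 in the NONO IP, against 476 and 515 in the inputs, a ratio of 0.792. All protein-coding genes together had a ratio of 0.479 on that scale and of 1.12 in shares of gene reads. That library-wide total, worked back from the values, was 2.38 times as large in the NONO IP as in the inputs although gene reads were similar, so the direction of the sum depends on the scale.

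**Figure D1:**
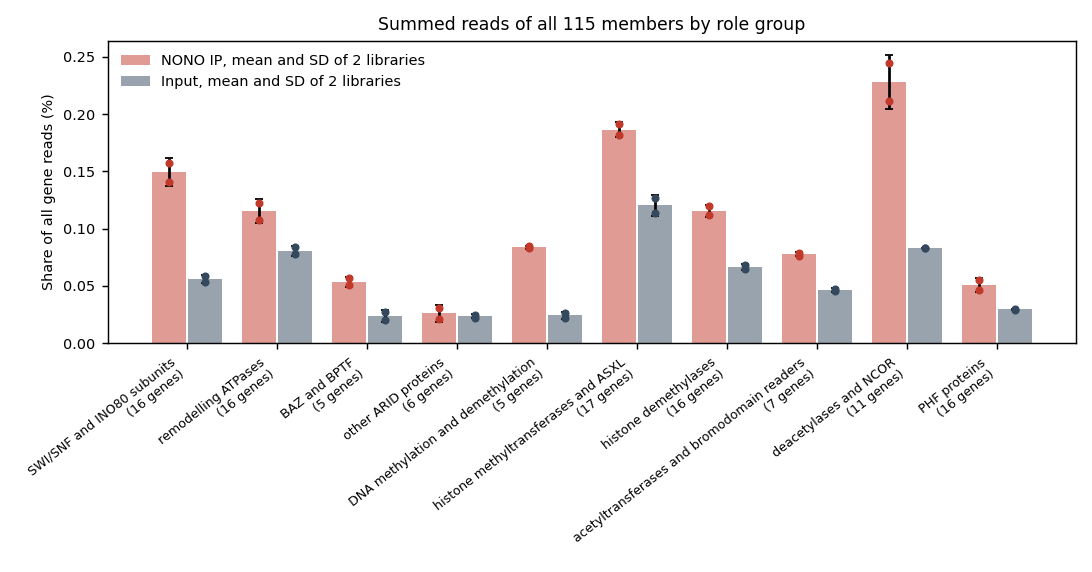
Share of all gene reads (%) held by the members of each role group, with the NONO IP left of the input; bars are means, whiskers are SDs over 2 libraries and points are libraries. The NONO IP stands above the input in every group, and the points of the 2 groups of libraries overlap for the other ARID proteins alone.

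Of the 115 members, 58 had enough reads to be tested by edgeR's quasi-likelihood test across 2920 genes. On the TMM scale, which sets the typical gene near no change, 19 were higher in the NONO IP, 4 were lower and 35 did not pass at an adjusted p of 0.05. Among all 2777 protein-coding genes tested, 27.3% were higher and 27.7% lower, and among all 2920 genes 29.8% and 26.9%. The members' share of higher calls, 32.8%, is thus near the background, and their share of lower calls, 6.90%, lies below it. This is a description of the list, not a test of it. Tested members had a median log2 fold change of 0.28, against -0.03 for protein-coding genes. With library totals in place of TMM the median of protein-coding genes moved to 0.40 and on log2(RPKM + 1) to -0.66, so each change is relative to the typical gene. The 2 groups of libraries did not overlap for 26 of the 58 in the higher direction and for 12 in the lower, against 38.4% and 38.6% of protein-coding genes. The number of lower members was 2 without NONO IP replicate 1 and 2 without Input replicate 1, and leaving out each library in turn gave 13 to 22 higher.

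The count filter shaped these numbers. Of the 58 tested members, 38 reached the filter's level in both libraries of each group, 14 reached it in the NONO IP alone, 2 in the inputs alone (Smarcc1 and Chd8) and 4 through 1 library of each group. Members that passed through the NONO IP alone tended by construction to be higher, and 8 of those 14 were called so. Among the 38 that passed in each group 11 were called higher and 2 lower, which is 28.9% and 5.26%, against 17.8% and 34.6% of the 1406 protein-coding genes that passed the same way. The median of these 38 was 0.11, against -0.31 for those genes. In a fit over all 13731 genes with no filter, which takes in all 115 members, 22 were higher and 3 lower, a median of 0.15 for the members and of 0.12 for protein-coding genes. There 8.04% of protein-coding genes were higher and 5.14% lower, and 8.59% and 4.73% of all genes.

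**Figure D2:**
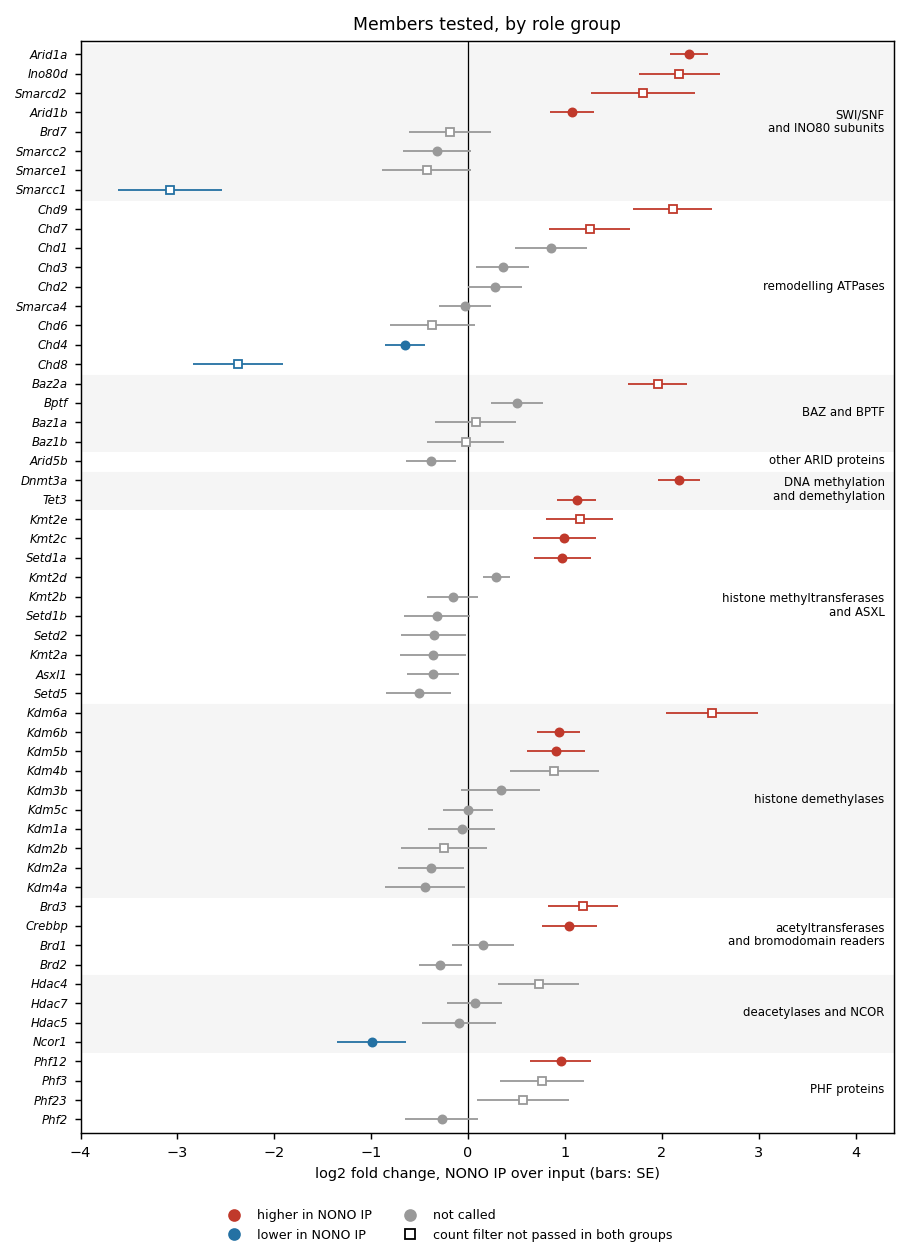
Log2 fold change of NONO IP over input with its SE for 56 of the 58 members tested, ordered by role group; red is higher, blue lower and grey not called, and open squares mark members that did not reach the count filter in both groups. Most role groups hold called and uncalled members side by side, from -3.08 (Smarcc1) to 2.52 (Kdm6a).

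Subunits of the SWI/SNF complex ranged widely, with Arid1a among the largest increases and Smarcc1 the largest decrease. SWI/SNF opens promoters and enhancers, and its BAF form carries either Arid1a or Arid1b while its PBAF form carries Arid2. Arid1a, on chromosome 5, had 229 and 173 reads in the NONO IP, against 23 and 32 in the inputs. The groups stood far apart, and its TMM-scaled level was 697 ± 111 CPM in the NONO IP and 144 ± 36.0 CPM in the inputs (SD, n = 2 each), a log2 fold change of 2.28 (SE 0.20, adjusted p = 3.84e-08). Arid1b, on chromosome 1, had 79 and 73 reads in the NONO IP, against 25 and 23 in the inputs (1.07, SE 0.22, adjusted p = 0.000634). Arid2 stayed below the filter with 15 and 10 reads against 9 and 9. Smarcd2, an accessory subunit, had 13 and 14 reads against 2 and 3 (1.81, SE 0.54, adjusted p = 0.00887), a call that was lost without each of the 4 libraries in turn (adjusted p between 0.0694 and 0.180).

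The core scaffold subunits of the same complex did not follow. Smarcc1, on chromosome 8, had 2 and 2 reads in the NONO IP, against 13 and 11 in the inputs, below 3 reads in each NONO IP library (-3.08, SE 0.54, adjusted p = 0.000116). Without Input replicate 1 its change was -3.01 with an adjusted p of 0.0865. Its partner scaffold Smarcc2 had 19 and 17 reads against 15 and 15 (-0.32, SE 0.35, adjusted p = 0.452). Smarce1, with 9 and 11 reads against 6 and 12, and the PBAF bromodomain subunit Brd7, with 19 and 10 against 13 and 9, did not pass either. Ino80d, a subunit of the INO80 complex that exchanges histone variants, had 34 and 35 reads in the NONO IP, against 7 and 3 in the inputs (2.18, SE 0.42, adjusted p = 0.000279). Of the 8 members tested in this group, 4 were higher, 1 was lower and 3 did not pass. Among all genes tested 29.8% were higher and 26.9% lower. Ino80d and Smarcd2 passed the count filter through the NONO IP alone and Smarcc1 through the inputs alone. Of the 3 members that passed in each group, 2 were higher, Arid1a and Arid1b. The 8 below the filter were Arid2 and 7 others, among them Smarcb1, Smarcd1, Smarcd3 and Brd9, which held between 2 and 37 reads over the 4 libraries. Summed over all 16 subunit genes, the share of gene reads was 0.149% ± 0.0123 in the NONO IP and 0.0560% ± 0.00377 in the inputs.

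**Figure D3:**
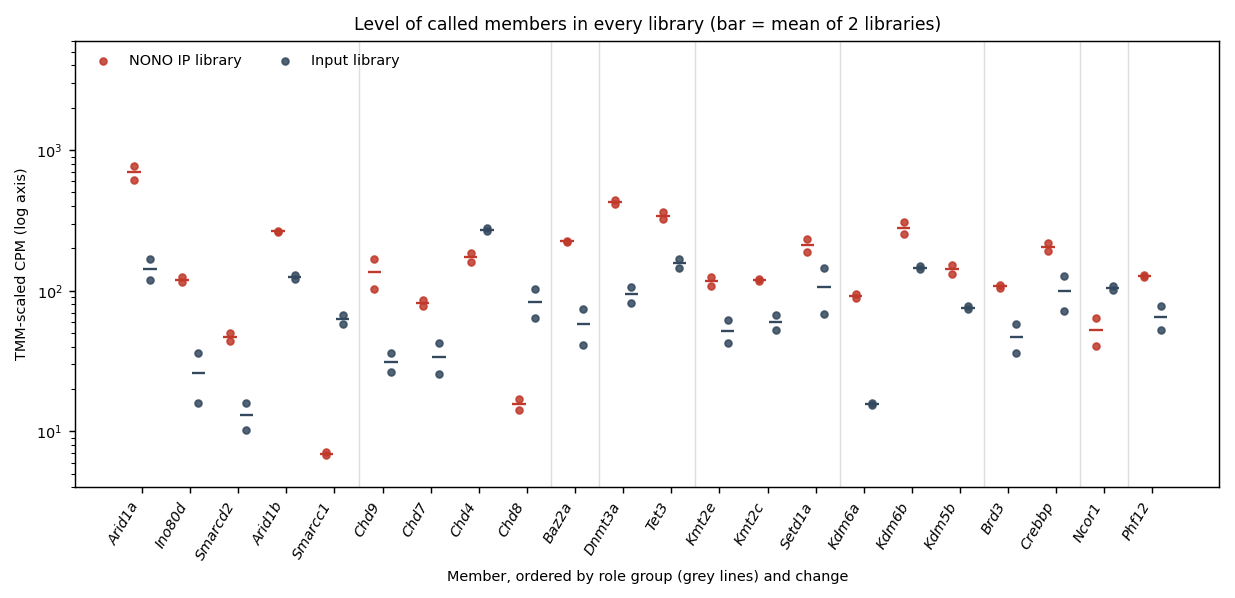
TMM-scaled CPM (log axis) of 22 of the 23 called members in each library, the NONO IP left of the input for each gene; points are libraries and bars are means. Arid1a, Dnmt3a and Kdm6a show wide gaps between the groups, while Smarcc1, Chd4, Chd8 and Ncor1 lie lower in the NONO IP. Of these, Kdm6a passed the count filter through the NONO IP alone, and Smarcc1 and Chd8 through the inputs alone.

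Among the ATPases that drive remodelling, called members of the CHD family had changes of both signs. Chd9 and Chd7 passed the count filter through the NONO IP alone and Chd8 through the inputs alone, so the filter had a part in their directions. Of the 5 ATPase genes that passed in each group, Chd4 was lower and the other 4 were not called (lowest adjusted p = 0.0562, Chd1). Chd9, on chromosome 19, had 50 and 29 reads in the NONO IP, against 7 and 5 in the inputs (2.11, SE 0.41, adjusted p = 0.000318). Chd7, which binds enhancers and is mutated in CHARGE syndrome in humans, had 23 and 24 reads against 5 and 8 (1.25, SE 0.42, adjusted p = 0.0166). Chd8, a related gene whose product restrains Wnt target genes, had 5 and 4 reads in the NONO IP, against 20 and 12 in the inputs (-2.38, SE 0.47, adjusted p = 0.000352). The groups did not overlap for any of these 3 genes, the NONO IP being high for Chd9 and Chd7 and low for Chd8. Such separation was seen for 40.6% of all genes tested in the higher direction and 37.3% in the lower.

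Chd4, the ATPase of the NuRD corepressor complex, had 47 and 52 reads in the NONO IP, against 54 and 50 in the inputs. The raw reads overlapped between the groups, and after scaling the level was 172 ± 18.8 CPM in the NONO IP and 271 ± 9.61 CPM in the inputs (-0.66, SE 0.21, adjusted p = 0.0124). The Chd4 call rests on the scaling, since library totals brought the change to -0.22 (adjusted p = 0.375). Chd3, the other NuRD ATPase, had 43 and 55 reads against 22 and 29 (0.36, SE 0.27, adjusted p = 0.272). Smarca4, the SWI/SNF ATPase, had 41 and 37 reads against 22 and 31 and lay near 0 (-0.03, SE 0.27, adjusted p = 0.933). Chd1, which travels with elongating polymerase, and Chd2 had log2 fold changes of 0.85 and 0.27 and did not pass (adjusted p = 0.0562 and 0.418). Chd6 did not pass either, at -0.37. Of 9 ATPase genes tested, 2 were higher, 2 lower and 5 not called, against 29.8% higher and 26.9% lower among all genes. The call of Chd7 was lost without Input replicate 1 (0.91, adjusted p = 0.146), as was that of Chd8 (-2.02, adjusted p = 0.0819) and of Chd4 (-0.65, adjusted p = 0.0668), and that of Chd4 also without NONO IP replicate 1 (-0.49, adjusted p = 0.119). Below the filter, the SWI/SNF ATPase Smarca2 had 14 and 5 reads against 4 and 6, the ISWI ATPase Smarca5 had 2 and 0 against 3 and 5, and the INO80 ATPase gene Ino80 had 3 and 9 against 9 and 3.

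Proteins of the BAZ family and Bptf partner with ISWI ATPases. Baz2a, a subunit of the nucleolar remodelling complex that silences ribosomal RNA genes, had 66 and 63 reads in the NONO IP, against 8 and 14 in the inputs. On chromosome 7, it was the only member called of the 4 tested in this group (1.96, SE 0.30, adjusted p = 3.8e-05). Across all genes tested 29.8% were higher and 26.9% lower. Baz2a passed the count filter through the NONO IP alone, so the filter had a part in its direction. Only Bptf passed in each group, and it was not called. Bptf, the large NURF subunit, had 47 and 49 reads against 18 and 27 (0.50, SE 0.27, adjusted p = 0.123). Baz1a and Baz1b lay at 0.08 and -0.02 with adjusted p-values of 0.886 and 0.966, and Baz2b had too few reads (2 and 6 against 3 and 7). Of the ARID proteins outside SWI/SNF, Arid5b alone was tested, with 37 and 32 reads against 33 and 27 (-0.38, SE 0.26, adjusted p = 0.219). With an offset for gene length Arid5b was called lower, at -1.18 (adjusted p = 0.00131).

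Both tested enzymes of cytosine methylation rose in the NONO IP. Of all genes tested 29.8% were higher, and so were 18.2% of those that passed the count filter in each group, as both enzymes did. Dnmt3a, which lays down new methylation, is on chromosome 6 and had 131 and 115 reads in the NONO IP, against 16 and 20 in the inputs. Its level was 427 ± 23.1 CPM in the NONO IP and 94.1 ± 16.6 CPM in the inputs (SD, n = 2 each), a log2 fold change of 2.18 (SE 0.22, adjusted p = 2.42e-07). Tet3, which oxidises methylcytosine, is on chromosome 4 and had 95 and 101 reads against 28 and 32 (1.12, SE 0.20, adjusted p = 0.000176). The NONO IP libraries stood above the inputs for both genes, as they did for 40.6% of all genes tested. The other enzymes had few reads. Dnmt1, the maintenance methyltransferase, had 1 and 4 reads in the NONO IP, against 6 and 7 in the inputs, Tet2 had 4 and 3 against 6 and 4, and Dnmt3b had 1 and 1 against 0 and 1. Summed over the 5 genes the share of gene reads was 0.0839% ± 0.00127 in the NONO IP and 0.0246% ± 0.00309 in the inputs.

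Histone methyltransferase and ASXL genes gave 3 higher calls among 10 tested, and the other 7 were not called. Across all genes tested 29.8% were higher and 26.9% lower. Of the 9 that passed the count filter in each group 2 were higher, against 18.2% of all genes that passed that way. Kmt2d, a writer of the enhancer monomethyl mark on histone H3, was the most read member of the group, with 194 and 183 reads in the NONO IP, against 93 and 112 in the inputs. Scaled, this was 655 ± 2.21 CPM in the NONO IP and 536 ± 80.3 CPM in the inputs, which did not pass (0.29, SE 0.14, adjusted p = 0.0778). Kmt2d is among the longest members, and its direction changed with the scaling. With a length offset it was called lower, at -0.72 (adjusted p = 0.000407), and with library totals it was called higher, at 0.72 (adjusted p = 0.000243).

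Kmt2c, the close relative of Kmt2d, had 36 and 33 reads in the NONO IP, against 13 and 10 in the inputs (0.99, SE 0.32, adjusted p = 0.0146). Kmt2e, whose PHD finger reads methylated histone H3, had 32 and 35 reads against 12 and 8 (1.15, SE 0.34, adjusted p = 0.00885). Kmt2e passed the count filter through the NONO IP alone. Setd1a, which trimethylates histone H3 at active promoters, had 56 and 65 reads against 28 and 13, inputs that differ widely between replicates (0.97, SE 0.29, adjusted p = 0.00945). All 3 calls were lost without Input replicate 2, at 0.78, 0.85 and 0.48 for Kmt2c, Kmt2e and Setd1a (adjusted p = 0.126, 0.0990 and 0.242). With the length offset Kmt2c lay at 0.00049. The reads of Kmt2c can be mixed with those of Prkag2, which overlaps it in RefSeq and had 7 and 6 reads against 1 and 0. Baz2a likewise overlaps Rbms2 (1 and 3 reads against 5 and 5), Chd4 holds Scarna11, Chd8 holds Snord8 and Tet3 holds an uncharacterised long noncoding RNA gene. Dnmt3a, Kdm6a and Chd7 each hold a long noncoding RNA gene too, and Chd9 holds a pseudogene. Kdm5b overlaps Mgat4e, Ncor1 overlaps Pigl and Kmt2d overlaps Tuba1c (7 and 1 reads against 19 and 14). Further members have such neighbours as well.

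The other 6 tested members of the group were Kmt2a, Kmt2b, Setd1b, Setd2, Setd5 and the Polycomb-associated cofactor gene Asxl1. Their changes lay between -0.51 (Setd5) and -0.16 (Kmt2b), and none passed (adjusted p between 0.207 and 0.638). Setd2, which marks transcribed gene bodies, had 23 and 18 reads in the NONO IP, against 16 and 19 in the inputs. The catalytic Polycomb genes were barely read, with 3 and 1 reads of Ezh2 against 0 and 0, and 4 and 4 of Ezh1 against 1 and 0.

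Of 10 histone demethylase genes tested, 3 were higher and 7 were not called, against 29.8% higher and 26.9% lower among all genes. Of the 7 that passed the count filter in each group 2 were higher, against 18.2% of all genes that passed that way. Kdm6a, which passed through the NONO IP alone, had the largest fitted increase. It encodes an enzyme that removes the repressive Polycomb mark from histone H3, is on chromosome X and had 28 and 25 reads in the NONO IP, against 3 and 3 in the inputs. This was 92.1 ± 3.89 CPM in the NONO IP and 15.7 ± 0.298 CPM in the inputs (2.52, SE 0.48, adjusted p = 0.000262). Both inputs held 3 reads, so their SD reflects the scaling alone. Kdm6b, on chromosome 10, which removes the same mark, had 75 and 86 reads against 29 and 27 (0.94, SE 0.22, adjusted p = 0.00163). Kdm5b, an eraser of promoter methylation on histone H3, had 45 and 37 reads against 15 and 14 (0.91, SE 0.30, adjusted p = 0.0145). The NONO IP libraries lay above the inputs for these 3 genes, as they did for 40.6% of all genes tested. The call of Kdm5b was lost without NONO IP replicate 1, Input replicate 1 or Input replicate 2 (adjusted p = 0.0622, 0.0607 and 0.0871).

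The other 7 demethylase genes tested did not pass, with Kdm4b at 0.89 (29 and 13 reads against 8 and 7) and Kdm4a at -0.44 (11 and 11 against 10 and 10) at the ends. Kdm5c, an X-linked relative of Kdm5b, lay at -0.00058 with 39 and 42 reads against 31 and 23. Kdm1a, the demethylase also called LSD1, had 23 and 20 reads against 18 and 12 (-0.07, SE 0.35, adjusted p = 0.881). Kdm5a was below the filter with 2 and 5 reads in the NONO IP, against 8 and 15 in the inputs, and in the fit with no filter it was lower (-2.04, SE 0.59, adjusted p = 0.0124).

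Among acetyltransferases and bromodomain readers, Crebbp and Brd3 rose. Across all genes tested 29.8% were higher and 26.9% lower. Crebbp, a coactivator that acetylates histones at enhancers, had 57 and 61 reads in the NONO IP, against 14 and 24 in the inputs (1.04, SE 0.28, adjusted p = 0.00450). Its paralogue Ep300 had 4 and 9 reads against 7 and 6, too few for the test. Brd3, of the BET family that ties acetylated histones to transcription, had 31 and 31 reads against 7 and 11 (1.19, SE 0.36, adjusted p = 0.0100). Brd3 passed the count filter through the NONO IP alone. Both calls were lost without Input replicate 1, at 0.66 for Crebbp and 0.85 for Brd3 (adjusted p = 0.113 and 0.112). A snoRNA gene lies inside Brd3 in RefSeq, and it was counted separately with 8 and 6 reads against 3 and 1. The BET gene Brd2 did not pass. It had 57 and 50 reads in the NONO IP, against 51 and 36 in the inputs (-0.29, SE 0.22, adjusted p = 0.285). Brd1, with 30 and 27 reads against 13 and 21, lay at 0.16.

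Ncor1, a corepressor that brings deacetylases to nuclear receptors, is on chromosome 10 and was lower, with 12 and 18 reads in the NONO IP, against 21 and 19 in the inputs (-0.99, SE 0.36, adjusted p = 0.0242). The Ncor1 call was lost without NONO IP replicate 1 (-0.63, adjusted p = 0.237), without Input replicate 1 (-0.97, adjusted p = 0.0636) and with library totals (-0.56, adjusted p = 0.186).

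The deacetylases themselves gave no call. Hdac4, Hdac7 and Hdac5, class IIa enzymes that shuttle between nucleus and cytoplasm in muscle, lay at 0.73, 0.07 and -0.09 (adjusted p = 0.144, 0.850 and 0.853). Hdac7 had 32 and 42 reads in the NONO IP, against 26 and 21 in the inputs. The class I genes, which form the catalytic core of most corepressor complexes, had few reads, with 1 and 1 of Hdac1 against 1 and 6, 10 and 2 of Hdac2 against 5 and 7, and 0 and 1 of Hdac3 against 4 and 3. The 9 Hdac genes together held 175 NONO IP reads and 123 input reads. Their share of gene reads was 0.0322% ± 0.00207 in the NONO IP and 0.0252% ± 0.00108 in the inputs.

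PHD finger proteins were mostly below the filter, with 12 of 16 untested. Among the 4 tested, 1 was higher and 3 were not called, against 29.8% higher and 26.9% lower among all genes. Phf12, a subunit of a Sin3 corepressor complex, had 37 and 36 reads in the NONO IP, against 15 and 10 in the inputs (0.95, SE 0.32, adjusted p = 0.0166), and the call was lost without Input replicate 2 (0.65, adjusted p = 0.185). Phf3, with 26 and 15 reads against 10 and 6, Phf23, with 12 and 17 against 4 and 9, and the demethylase-related Phf2, with 16 and 15 against 12 and 13, lay at 0.76, 0.56 and -0.27 and did not pass. Phf21a, a partner of Kdm1a, was untested at 11 and 7 reads against 2 and 1. In the fit with no filter it was higher (2.14, SE 0.75, adjusted p = 0.0475).

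Untested members made up 57 of the 115, with 1 to 43 reads each over the 4 libraries. They held 259 and 209 reads in the NONO IP, against 179 and 203 in the inputs, which is 0.0859% ± 0.00958 of gene reads in the NONO IP and 0.0784% ± 0.00940 in the inputs (SD, n = 2 each). Here the groups overlapped (exact permutation p = 0.667). The tested members held 1.00% ± 0.00589 in the NONO IP and 0.476% ± 0.0128 in the inputs. The tested members were kept in part because of their NONO IP reads.

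Related genes were next compared within each library, because the share of a pair's reads on one member does not depend on how libraries are scaled. This comparison was added after the data were seen. Of 36 pairs of related members listed, 27 had at least 20 reads on each gene over the 4 libraries, and several pairs share a member, such as Chd8 or Brd2. In 17 pairs the shares of the 2 NONO IP libraries lay wholly on one side of those of the inputs. For 2 libraries against 2 such a separation has an exact two-sided permutation p of 0.333. Separation was common in these data, since CPM of the groups did not overlap for 40.6% of all genes tested in the higher direction and 37.3% in the lower. Pairs of other genes were not examined, so whether 17 of 27 is more than usual was not tested. In 2 of the 17 pairs the exact 95% binomial intervals of the shares were apart as well. Arid1a held 93.9% and 94.5% of the reads of Arid1a and Arid2 in the NONO IP (intervals 90.1% to 96.5% and 90.2% to 97.3%), against 71.9% and 78.0% in the inputs (53.2% to 86.2% and 62.4% to 89.4%). Chd9 held 90.9% and 87.9% of the reads of Chd9 and Chd8 in the NONO IP (80.0% to 97.0% and 71.8% to 96.6%), against 25.9% and 29.4% in the inputs (11.1% to 46.3% and 10.3% to 56.0%). Chd9 passed the count filter through the NONO IP alone and Chd8 through the inputs alone, so this gap restates their opposite changes.

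Other pairs shifted with intervals that overlap. Of their genes, Chd7 and Kdm6a passed the count filter through the NONO IP alone, and Chd8 and Smarcc1 through the inputs alone. Their gaps restate changes already given. The Chd7 share of Chd7 and Chd8 was 82.1% and 85.7% in the NONO IP, against 20% and 40% in the inputs. Smarcc2 held 90.5% and 89.5% of the SMARCC reads, against 53.6% and 57.7%. Kdm6a held 27.2% and 22.5% of the reads of the KDM6 pair, against 9.38% and 10%. Kdm5b held 95.7% and 88.1% of the reads of Kdm5b and Kdm5a, against 65.2% and 48.3%. The Arid1a share of Arid1a and Arid1b was 74.4% and 70.3%, against 47.9% and 58.2%. Kmt2d went down against Kmt2c, to 84.3% and 84.7% in the NONO IP, against 87.7% and 91.8% in the inputs. Shares overlapped between the groups in the other 10 pairs, for example Kmt2a with Kmt2b, Setd2 with Setd5, Baz1a with Baz1b and Smarca4 with Smarca2.

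**Figure D4:**
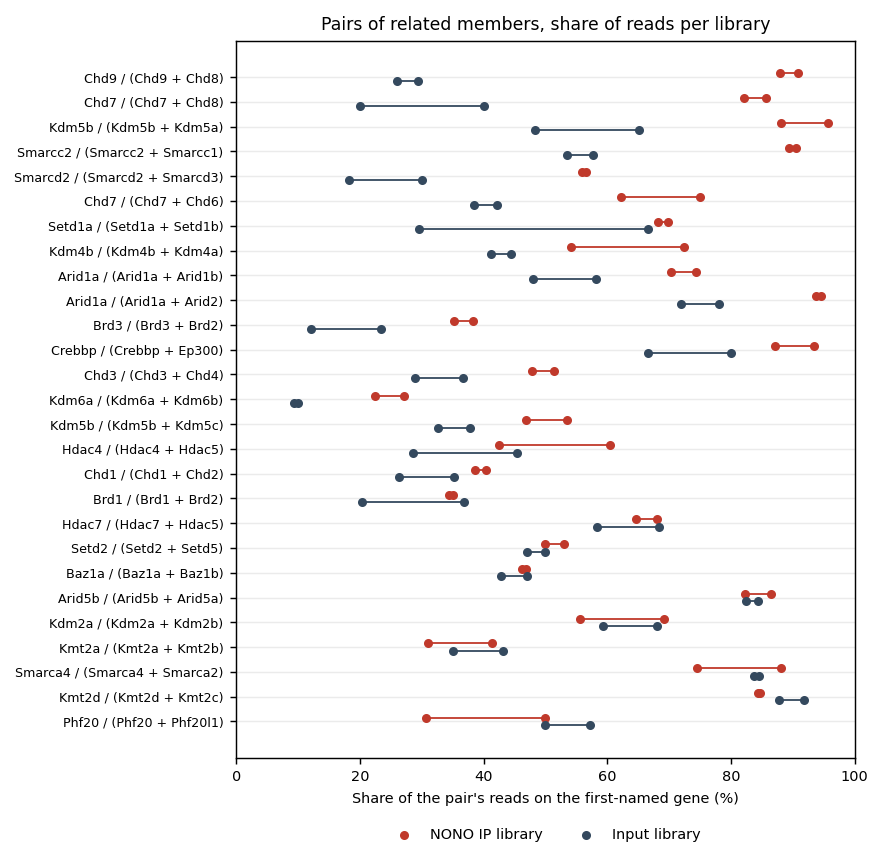
Share (%) of a pair's reads that fell on the first-named gene, in each library, for the 27 pairs; lines join the 2 libraries of a group, with the NONO IP above the input. The widest gaps are those of Chd9 and of Chd7 against Chd8, and pairs such as Kmt2a with Kmt2b overlap. Chd9 and Chd7 passed the count filter through the NONO IP alone and Chd8 through the inputs alone.

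Gene length moved with these changes. Lengths were taken from the ratio of reads to RPKM and are given relative to the median of the genes tested. The tested members are long, with a median relative length of 1.75 (range 0.406 to 5.14), against 1.01 for protein-coding genes tested. Of the 58, 42 were in the long class, the longest of 3 equal classes of all genes tested. In that class 16 members were higher and 3 lower, which is 38.1% and 7.14%, against 39.7% and 19.7% of the 932 protein-coding genes in it, 59.4% of which were called in one direction or the other. The members' median there was 0.43 and that of the protein-coding genes 0.46. In the middle class 27.5% of protein-coding genes were higher and 21.2% lower, and in the short class 13.9% and 43.0%. Of the 16 members in those classes, Kdm6a, Brd3 and Smarcd2 were higher and Smarcc1 was lower, but the first 3 passed the count filter through the NONO IP alone and Smarcc1 through the inputs alone. The 7 short and middle members that passed in each group were not called (lowest adjusted p = 0.285, Brd2).

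With a loess offset for length across all genes, 17 members were higher and 8 lower, against 26.4% and 22.2% of all genes. The members' median was then 0.05, against 0.05 for protein-coding genes in that fit. Kmt2c, Chd9 and Chd7 lost their calls there, at 0.00049, 0.93 and 0.84 (adjusted p = 1, 0.0920 and 0.112). Phf23 was called higher, at 1.22, and Kmt2d, Kmt2a, Setd5 and Arid5b lower. Arid1a and Dnmt3a kept their higher calls under the offset and the 14 other alternatives run. Kdm6a kept its call in the 13 of these 15 that tested it. Across the 58 tested members, the Pearson correlation of log2 fold change with log2 length was 0.201 (Spearman 0.213), and across 2777 protein-coding genes it was 0.316 (0.319). These are descriptions across genes, which share libraries and depth. With log2 input level the correlation was -0.241 for the members and -0.600 for protein-coding genes. Input level is itself a term of the fold change, and the count filter acts on it, so a negative value arises in part by construction. Among genes that passed the filter in each group the correlation was 0.0881 for the members and -0.375 for protein-coding genes.

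**Figure D5:**
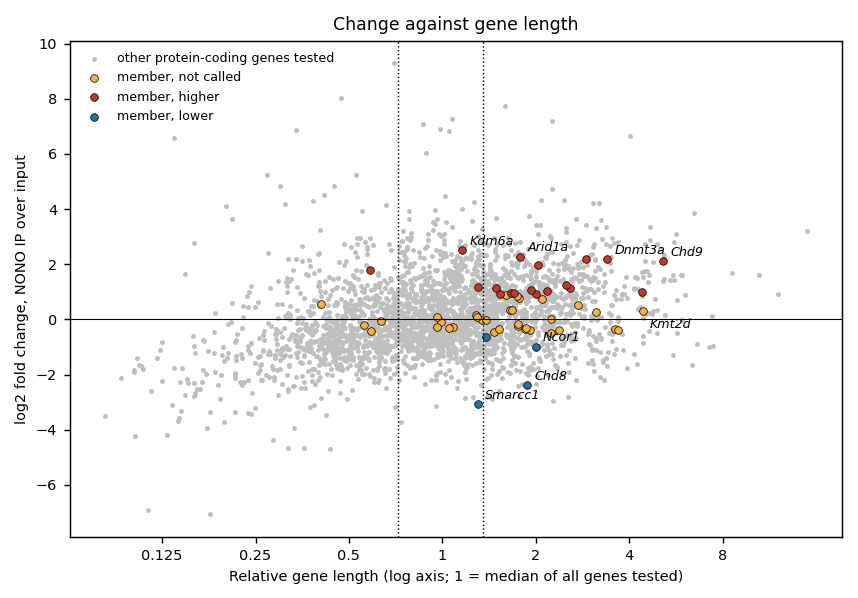
Log2 fold change of NONO IP over input against relative gene length (log axis, 1 is the median of the genes tested) for 56 tested members and for other protein-coding genes; dotted lines bound the 3 length classes at 0.720 and 1.35. Most members lie to the right of the second line, and the grey cloud is higher there than at the left.

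Levels of different genes were compared per length, on the RPKM scale. Arid1a had 26.0 ± 3.35 RPKM in the NONO IP and Brd2 had 12.9 ± 0.297 (SD, n = 2), which stand apart by more than their SDs. In the inputs the order was the reverse, with Arid1a at 8.53 ± 2.18 RPKM and Brd2 at 24.8 ± 5.44. Chd4, at 20.7 ± 0.601 RPKM in the inputs, did not differ from Brd2 there beyond their spread. Over all 115 members the median RPKM was 1.83 in the NONO IP and 3.11 in the inputs. These medians depend on the library-wide total, which was 2.38 times as large in the NONO IP as in the inputs. In summed RPKM the ratio of NONO IP to input was 0.792 for the members and 0.479 for all protein-coding genes.

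Other chromatin genes that the name rule does not cover were read from lists of 168 genes, of which 160 were in the table as protein-coding and 43 were tested. Of these, 22 were higher and 3 lower, with a median log2 fold change of 0.93. The higher share of all genes tested was 29.8% and the lower share 26.9%, with a median of 0.02. In the fit with no filter, where all 160 enter, the median was 0.40, with 24 higher and 1 lower. There 8.59% of all genes were higher and 4.73% lower, with a median of 0.30. Of the 43, 22 had passed the filter through the NONO IP alone, and 16 of the 22 higher calls were among these. The 16 that passed in each group had a median of 0.10, with 6 higher and 1 lower, against 18.2% and 34.8% of all genes that passed that way. In the list of Polycomb genes and further methyltransferases, 5 of 7 tested were higher and 2 were not called, 3 of the 5 having passed through the NONO IP alone. Of these 5, Kmt5a and Kmt5b encode methyltransferases of histone H4 and not Polycomb proteins. Aebp2, a cofactor of the Polycomb methyltransferase, had 104 and 76 reads in the NONO IP, against 11 and 13 in the inputs (2.31, SE 0.27, adjusted p = 1.9e-06), and the chromobox gene Cbx6 had 58 and 66 against 22 and 19 (1.01, SE 0.26, adjusted p = 0.00298).

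Corepressor, NuRD and methyl-CpG reader genes were higher at 9 of 15 and lower at 1, against 29.8% and 26.9% of all genes tested. Of the 9, 7 had passed the filter through the NONO IP alone, and of the 4 genes that passed in each group 2 were higher. Mbd2, a reader of methylated DNA in NuRD, had 112 and 113 reads in the NONO IP, against 17 and 16 in the inputs (2.18, SE 0.22, adjusted p = 3.24e-07). Cdyl, a chromodomain corepressor, had 92 and 62 reads against 10 and 7 (2.58, SE 0.32, adjusted p = 3.73e-06). Trim28, the corepressor of KRAB zinc finger proteins, had 7 and 17 reads against 22 and 22 (-1.45, SE 0.40, adjusted p = 0.00493), and its call was lost without NONO IP replicate 1 (-0.85, adjusted p = 0.0978). Mbd2 was in the short length class and Cdyl in the middle one, at relative lengths of 0.337 and 0.877. Cdyl2, Tbl1xr1 and Cbx3 of this list had larger increases on fewer reads, at 3.34, 2.94 and 2.80 (adjusted p = 6.31e-05, 0.000279 and 2.96e-05), and were named after their values were seen.

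Of 9 other acetyltransferase and deacetylase genes tested, 5 were higher and 2 lower, against the same 29.8% and 26.9% of all genes. Of the 5, 4 had passed the filter through the NONO IP alone, and of the 3 genes that passed in each group 1 was higher and 1 lower, with a median of -0.03. Kansl1, a scaffold of the NSL acetyltransferase complex, had 98 and 79 reads in the NONO IP, against 12 and 14 in the inputs (2.17, SE 0.26, adjusted p = 2.09e-06), and Epc1, of the NuA4 complex, had 30 and 29 against 5 and 2 (2.46, SE 0.47, adjusted p = 0.000273). The lower genes were the acetyltransferase Kat6a (-1.31, SE 0.47, adjusted p = 0.0240) and the scaffold Trrap (-0.76, SE 0.30, adjusted p = 0.0370). Both lost their calls without NONO IP replicate 1 (adjusted p = 0.349 and 0.325) and with library totals (0.118 and 0.363). In the list of other methyltransferases and partners 2 of 8 were higher, Jmjd1c (1.57, SE 0.27, adjusted p = 9.55e-05) and Nsd2 (1.65, SE 0.53, adjusted p = 0.0131). Of these 2, Jmjd1c belongs to a histone demethylase family and is not a methyltransferase. Nsd2 lost its call without NONO IP replicate 1, NONO IP replicate 2 or Input replicate 2 (adjusted p = 0.237, 0.0652 and 0.177). Among other remodeller genes Rad54l2 was higher (1.47, SE 0.48, adjusted p = 0.0143), a call lost without NONO IP replicate 2 or Input replicate 1 (adjusted p = 0.131 and 0.153), and Srcap, Ep400 and Pbrm1 did not pass.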

How the data were processed

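Raw read counts per gene for 4 RIP-seq libraries, deposited by the authors, were used with the deposited RPKM values, which divide reads by gene length and by a library total not stated in the file headers. Per the labels' protocols, RNA was DNase-treated and poly(A) RNA was made into stranded libraries. The submitters' processing notes name the tools HISAT2 and HOMER and the build mRatBN7.2, with no role given. How reads were counted, whether by strand and on which annotation, is not given in the sources used here, so reads of overlapping genes are uncertain. Gene names come from the deposited tables, and all 115 members matched RefSeq symbols (GRCr8), used only for neighbours.

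Counts were tested in R 4.3.3 by the quasi-likelihood test of edgeR 4.0.16 with TMM scaling (factors 1.17 and 1.18 for the NONO IP, 0.844 and 0.861 for the inputs) after filterByExpr. It kept 2920 genes holding 91.1% of counts, each with at least 23 reads. P-values were adjusted by Benjamini-Hochberg over all genes tested, at a threshold of 0.05. SE is the log2 fold change over the root of F. Relative length came from counts over RPKM, with library totals set by 461 genes of at least 30 counts. The pipeline was run on simulated data with the same spread for all genes, which does not measure error in the calls given here. Replicate counts differed by chi-square per degree of freedom of 1.42 in the NONO IP and 1.12 in the inputs, where 1 is sampling noise.

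Alternatives were scaling by DESeq2 size factors or by library totals, DESeq2's Wald test (1.42.0), no filter, a minimum of 50 counts in 2 libraries, limma (3.58.1) on log2 RPKM with a pseudocount of 1 or of 0.1 where 2 libraries reached an RPKM of 1, a replicate block, a loess length offset (span 0.5), offset and block together, and leaving out each library. A filter passed in each group (38.9 CPM in all 4 libraries) and the pair shares were added after the data were seen. Values of 2 members are not reported here by gene, though counts and sums over the members include them. Members and lists were chosen with earlier results of these data known. The rule for naming was: in each role group up to 3 tested members with the smallest adjusted p in each direction and the most read member, and up to 2 genes in each direction from each further list. Members named outside it were chosen after their values were seen.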

Additional observations from a re-analysis of the deposited data

How the results depend on the processing

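With DESeq2's Wald test 453 genes were higher and 423 lower, among them 10 and 2 members, 9 and 1 of the long members, 1 higher of the short and middle members, and 8 and 0 of the other chromatin genes. With at least 50 counts in 2 libraries the counts were 254 and 247 genes, 9 and 1 members, 9 and 1 long members, 0 and 0 short and middle members, and 6 and 0 other chromatin genes, where fewer genes were tested. The members' median was then 1.02, and 1.03 above that of protein-coding genes. On log2(RPKM + 1) limma called 393 genes higher and 1425 lower, 4 members higher, 3 long members and 1 other member higher, 2 short and middle members lower and 6 other chromatin genes higher, with medians of -0.56 for members and -0.39 for other chromatin genes. On log2(RPKM + 0.1) it called 348 genes, 4 members, 3 long members, 1 other member and 6 other chromatin genes higher and 1 of these lower, with medians of -0.68 and -0.52. Library totals left 466 genes, 2 members, 1 long member and 1 other chromatin gene lower, with 25 long members higher and a members' median of 0.71. With no filter 1 other chromatin gene was lower. The filter passed in each group left 381 genes higher and 364 lower, 0 members lower, 0 long members lower, 0 and 0 short and middle members, and 7 and 0 other chromatin genes. The length offset gave 8 members lower, 7 of them long, with or without the replicate block. It put the members' median -0.0028 from that of protein-coding genes and turned Kmt2d to -0.72, or to -0.71 with the block. As a share of coding reads and in RPKM the members' sum ratio was 1.75 and 0.792. In RPKM the ratios of role groups turned below 1 for PHF proteins (0.751), SWI/SNF and INO80 (0.908), acetyltransferases (0.716), deacetylases (0.919), demethylases (0.817), methyltransferases (0.702), ATPases (0.591) and other ARID proteins (0.534), the last also in coding reads (0.984) and without NONO IP replicate 1 (0.886), against 1.32 without NONO IP replicate 2. The cause was not tested.

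Leaving out 1 library in turn gave 679 to 810 genes higher and 615 to 705 lower, 13 to 22 and 2 to 5 members, 11 to 20 and 1 to 4 long members, 1 to 2 and 0 to 1 short and middle members, and 16 to 18 and 1 to 3 other chromatin genes. The members' median ran from 0.12 to 0.31, its distance from protein-coding genes from 0.069 to 0.37 and the sum ratio from 1.91 to 2.02. Without 1 library, the other sample of its group is assumed to vary like the other group. Of the 23 called members 10 kept their call under each leave-out, none changed sign under the 15 alternatives, and 12 of 23 kept it with the Wald test and 7 on each RPKM scale. Among uncalled members 18 changed sign with library totals. Same-numbered libraries did not deviate together (correlation 0.0418). At these read numbers that cannot show whether an IP and an input of the same number came from the same lysate. With a replicate block 20 members were higher and 4 lower, Chd1 being added. Depth limits the 57 untested members, for which an absent call says nothing of their change.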
